A study of Homo sapiens with 4 samples.

Results

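The mucins listed here, 10 genes, were followed in the GALNT3 knockdown arrays: MUC1, MUC2, MUC4, MUC5B, MUC6, MUC12, MUC13, MUC15, MUC16 and MUC20. Their probes were found by the accession that the array files give for each probe, matched to a RefSeq gene table, without use of any measured value. Of the 41000 probes, 15 belonged to 8 of these 10 genes, with 4 probes for MUC4, 3 for MUC2, 2 each for MUC6 and MUC20 and 1 each for MUC1, MUC13, MUC15 and MUC16. In all, the table named 17240 genes on the array. MUC5B and MUC12 matched no probe through that table and are named only. A2780s is an epithelial ovarian adenocarcinoma cell line. The knockdown clones sh-G1 and sh-G2 are stable clones of it that carry 1 and the same shRNA against GALNT3, expressed from the pSilencer puro plasmid, and the ctrl clone was mock-transfected with that vector. All 3 clones were isolated in medium with 5 µg/mL puromycin, and each clone is a single one, so an effect of the shRNA and a trait of a clone cannot be told apart where only 1 ctrl clone stands for the control. RNA of sh-G1 was set against RNA of ctrl on 2 dual-colour Agilent arrays, and so was RNA of sh-G2. Replicate 1 of a clone had the knockdown RNA in Cy5, and replicate 2 had it in Cy3. Values are given for sh-G1 replicates 1 and 2 and then for sh-G2 replicates 1 and 2.

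Mucins are large glycoproteins whose repeated serine- and threonine-rich stretches carry dense O-linked glycans. GALNT3 is one of the enzymes that add the first sugar, N-acetylgalactosamine, to those residues, so mucin proteins are its substrates. Some mucins, such as MUC1, MUC4 and MUC16, span the membrane of epithelial cells, whereas others, such as MUC2 and MUC6, are secreted and build mucus gels. MUC16 carries the CA125 epitope used as a serum marker of ovarian cancer. An array measures the transcript and says nothing of the amount of mucin protein or of its glycans. The comparison asked whether the mucin transcripts differed between the GALNT3 knockdown clones and ctrl.

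The primer pair with which the study measured MUC1 transcript by semi-quantitative RT-PCR is shown because the array also has a MUC1 probe. Whether primers and probe read the same forms of the transcript was not tested. Each primer has 20 bases. Promoters of MUC1, whose transcript the study followed, and of MUC16, the carrier of CA125, are shown as the regions from which these transcripts start. They are from RefSeq, build GRCh38.p14, and span 300 bases around an annotated start, most of them before it.
MUC-1 forward primer: atctcattgccttggctgtc
MUC-1 reverse primer: ccactgctgggtttgtgtaa
MUC1 promoter, chr1:155192866-155193165, minus strand: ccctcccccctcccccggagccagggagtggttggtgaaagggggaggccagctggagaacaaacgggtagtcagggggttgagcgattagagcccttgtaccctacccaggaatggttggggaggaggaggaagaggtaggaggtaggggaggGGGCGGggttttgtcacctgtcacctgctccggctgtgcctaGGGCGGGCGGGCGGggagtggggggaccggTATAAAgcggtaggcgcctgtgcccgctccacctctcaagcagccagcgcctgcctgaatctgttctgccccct
MUC16 promoter, chr19:9065702-9066001, minus strand: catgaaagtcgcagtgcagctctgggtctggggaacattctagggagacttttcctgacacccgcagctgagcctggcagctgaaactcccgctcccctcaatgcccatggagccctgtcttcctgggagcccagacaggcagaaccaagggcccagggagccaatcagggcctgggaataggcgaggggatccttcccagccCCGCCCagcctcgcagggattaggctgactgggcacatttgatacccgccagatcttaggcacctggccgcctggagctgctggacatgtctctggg
Capitals mark 2 motifs searched on both strands with overlaps counted, the GC box GGGCGG and the TATA motif TATAAA. The MUC1 promoter held 4 GC boxes, of which 3 overlap, and a TATA motif 24 bases before the start. The MUC16 promoter shown held 1 GC box, 47 bases before the start, and no TATA motif, and the promoter of another annotated MUC16 start, not shown, held neither motif. Of 35116 promoters of the same length, 45.0% held the GC box and 11.5% the TATA motif, and a match is a description of the letters only.

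The 4 arrays lay on 1 slide. The scanner software marked 88.1% to 97.0% of the spots of an array as well above background for the knockdown RNA and at least 95.9% for ctrl. This mark was carried by nearly all probes, among them 5 of the 6 probes of leukocyte genes such as CD3E and PTPRC in both channels on all 4 arrays. Whether the signal of a mucin probe came from its own transcript was not tested. The probe of GALNT3, the targeted gene, had log2 ratios of knockdown over ctrl of -0.09 and 0.08 in sh-G1 and 0.12 and -0.14 in sh-G2, with a mean of -0.01 and a limma adjusted p of 0.963. Its ctrl signal exceeded the lowest ctrl signal well above background by only 0.29 (log2), and on 2 of the 4 arrays the knockdown RNA did not reach that mark, so a loss of GALNT3 transcript was hardly measurable with this probe. The knockdown labels were therefore not checked by the targeted gene. Of the epithelial markers, EPCAM and CDH1 were well above background in both channels on all 4 arrays.

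In MUC1, a membrane-spanning mucin of simple epithelia, the log2 ratio of knockdown over ctrl was -0.12 and -0.18 in sh-G1 and -0.11 and -0.01 in sh-G2. All 4 values lay below 0. The mean over the clones was -0.10 ± 0.05 (SE, n = 2 clones), a fold of 0.930 with a 95% interval of 0.841 to 1.03, and limma gave an adjusted p of 0.509. Here and below, the SE and the interval of a mean are those of limma, which moderates the variance of a probe with that of all probes tested. They are not the plain SE and interval of 2 clone values. The normalised log2 signal of ctrl was 8.86 ± 0.15 (SD over 4 arrays of 1 clone) and that of the knockdown clones 8.76 on average. The interval included no change, and MUC1 did not pass the test.

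In MUC16, the membrane mucin that carries CA125, the log2 ratio was -0.02 and 0.00 in sh-G1 and 0.05 and -0.11 in sh-G2. The signs were mixed in both clones. The mean was -0.02 ± 0.04 (SE, n = 2 clones), the 95% interval of the fold ran from 0.907 to 1.07, and the limma adjusted p was 0.906. The ctrl signal exceeded the lowest ctrl signal well above background by 1.85 (log2), and the probe was well above background in both channels on all 4 arrays.

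**Figure D1:**
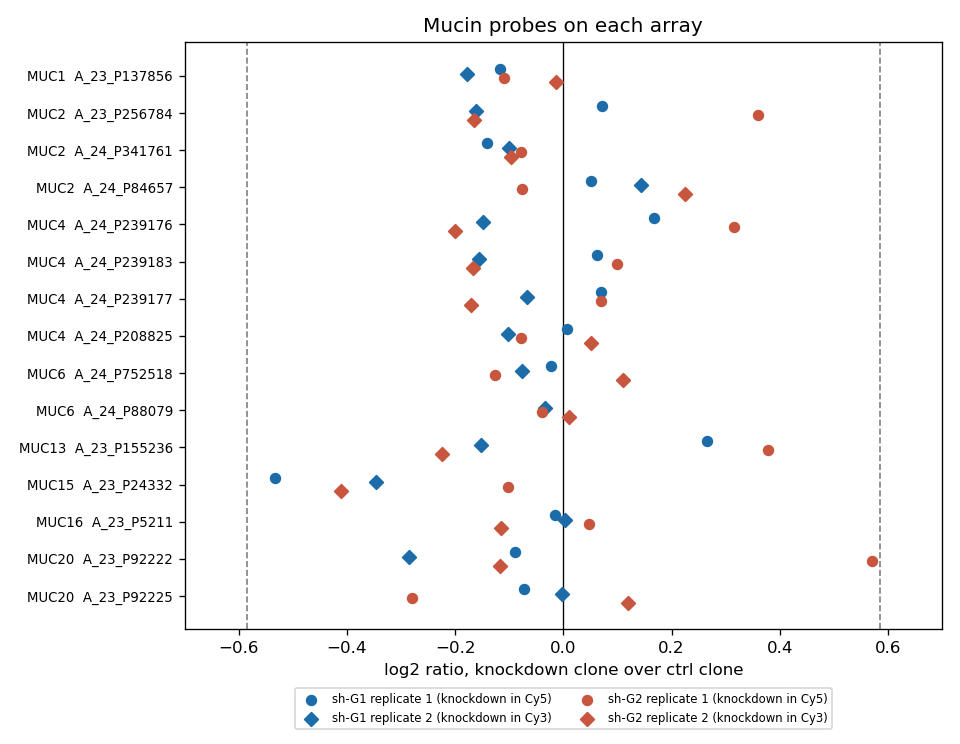
Log2 ratio of knockdown over ctrl (horizontal axis) of each of the 15 mucin probes (vertical axis) on the 4 arrays. Colour marks the clone, circles mark arrays with the knockdown clone in Cy5 and diamonds those with it in Cy3, and dashed lines mark a change of 1.5-fold. No point lies beyond the dashed lines, the points of MUC15 all lie to the left of 0, and in MUC13 circles lie to the right and diamonds to the left.

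MUC15, another membrane mucin, had the lowest mean of the 14 mucin probes tested. Its log2 ratio was -0.53 and -0.35 in sh-G1 and -0.10 and -0.41 in sh-G2. All 4 arrays lay below 0, with the values of the clones overlapping. The mean was -0.35 ± 0.07 (SE, n = 2 clones), a fold of 0.786 with a 95% interval of 0.675 to 0.914. The limma p was 0.0130 before and 0.231 after adjustment over 39151 probes, so MUC15 did not pass the test. In a fit of the 4 arrays with clone as a random block, limma gave an adjusted p of 0.0273, and 2569 of the 39151 probes were called there against 328 in the fit on the clone means. With a spread like that of the knockdown clones also assumed for ctrl, the 95% interval of the log2 ratio ran from -0.73 to 0.03.

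MUC13, a membrane mucin of the gut epithelium, had log2 ratios of 0.27 and -0.15 in sh-G1 and of 0.38 and -0.22 in sh-G2. It was higher in the knockdown clone on both arrays with that clone in Cy5 and lower on both with it in Cy3. Averaged over the dyes, the difference was 0.07 ± 0.05 (SE, n = 2 clones), with a limma adjusted p of 0.670.

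MUC4 is a membrane mucin known as a ligand-like partner of the receptor ERBB2. Its probe A_24_P239176 had log2 ratios of 0.17 and -0.15 in sh-G1 and of 0.31 and -0.20 in sh-G2. Probe A_24_P239183 gave 0.06, -0.16, 0.10 and -0.17 on the same arrays in the same order. Probe A_24_P239177 gave 0.07, -0.07, 0.07 and -0.17. In these 3 probes the sign again followed the dye. The means were 0.03, -0.04 and -0.03, each with an SE of 0.06 (n = 2 clones), and the limma adjusted p was between 0.847 and 0.919. The fourth probe, A_24_P208825, gave 0.01, -0.10, -0.08 and 0.05, and the knockdown RNA reached the mark for a signal well above background on 3 of the 4 arrays. Its ctrl signal exceeded the lowest signal with that mark by only 0.89 (log2). No MUC4 probe passed the test.

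MUC20 is a small membrane mucin described as a partner of the receptor MET, and its gene lies next to MUC4 on chromosome 3. Probe A_23_P92222 had log2 ratios of -0.09 and -0.28 in sh-G1 and of 0.57 and -0.12 in sh-G2. A single array, replicate 1 of sh-G2, stood above the other 3. The clones differed by -0.41 (sh-G1 minus sh-G2, 95% interval -0.81 to -0.02), with a limma p of 0.0441 before and 0.650 after adjustment, so the difference did not pass the test. This test between clones has 1 sample of each clone on 2 dye-swapped arrays, so its p measures the spread between arrays and not between clones. Without that array the mean of the probe was -0.15. The other probe, A_23_P92225, gave -0.07, 0.00, -0.28 and 0.12, so on that array it had its lowest value, where A_23_P92222 had its highest. For A_23_P92225 the ctrl signal exceeded the lowest marked signal by 0.90 (log2).

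Of the secreted gel-forming mucins, MUC2 is the main mucin of intestinal mucus and MUC6 a mucin of glandular mucus in the stomach. MUC2 probe A_24_P341761 gave log2 ratios of -0.14 and -0.10 in sh-G1 and of -0.08 and -0.10 in sh-G2. All 4 lay below 0, and their mean was -0.10 ± 0.05 (SE, n = 2 clones; limma adjusted p = 0.533). The other MUC2 probes did not follow it. Probe A_23_P256784 gave 0.07, -0.16, 0.36 and -0.16, with signs that followed the dye. Probe A_24_P84657 gave 0.05, 0.14, -0.08 and 0.22, with a ctrl signal that exceeded the lowest marked signal by 0.81 (log2). The 3 MUC2 probes thus had means on both sides of 0, and none passed the test.

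MUC6 probe A_24_P752518 gave log2 ratios of -0.02 and -0.08 in sh-G1 and of -0.13 and 0.11 in sh-G2, with a mean of -0.03 ± 0.05 (SE, n = 2 clones; limma adjusted p = 0.875). The other MUC6 probe, A_24_P88079, carried an outlier mark on replicate 1 of sh-G1 and was not tested. On its other 3 arrays it gave -0.03, -0.04 and 0.01. Neither MUC6 probe departed from 0 by more than the arrays differed.

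**Figure D2:**
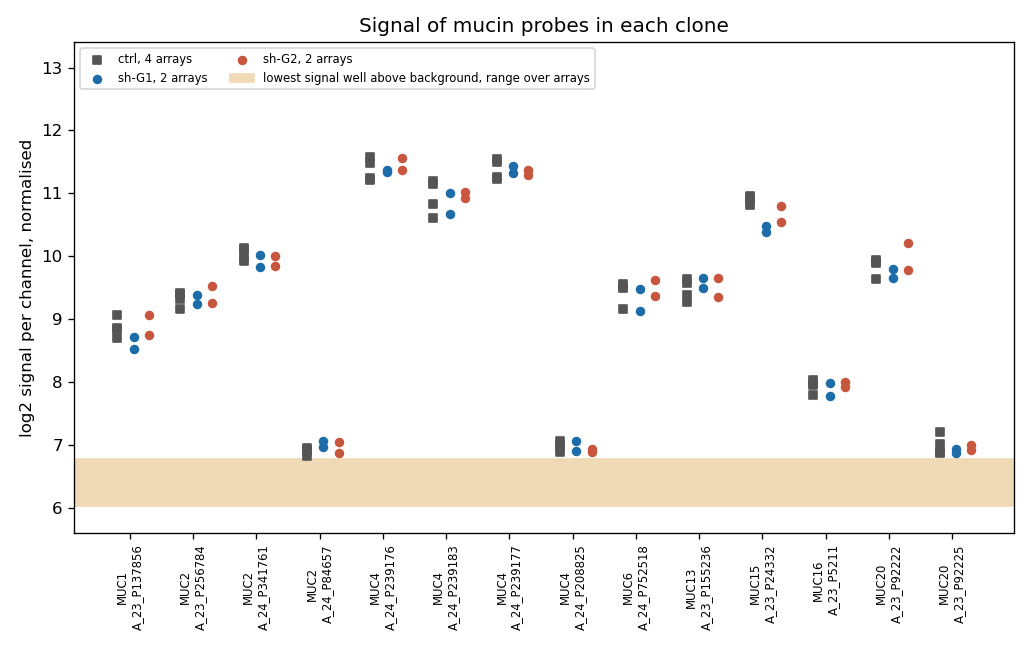
Normalised log2 signal (vertical axis) of the 14 mucin probes tested (horizontal axis), with grey squares for ctrl on 4 arrays and circles for sh-G1 and sh-G2 on 2 arrays each. The band spans the lowest signals well above background over arrays and channels. Ctrl and knockdown signals overlap in 13 probes, MUC15 is lower in all 4 knockdown signals than in any ctrl signal, where 6.79% of all probes do not overlap, and 3 dim probes of MUC2, MUC4 and MUC20 sit just above the band.

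Of the 14 mucin probes tested, 0 passed the limma test of the mean over the clones, where 0.838% of all 39151 probes did, 0.7% in the lower direction. At an unadjusted p under 0.05, 1 mucin probe was counted, that of MUC15, where 13.3% of all probes were. No mucin probe changed at least 1.5-fold on all 4 arrays, which 1.15% of all probes did. The study's rule asks for 1.5-fold on both arrays of a comparison, and 0 mucin probes met it in sh-G1 or in sh-G2, where 1.68% and 1.97% of all probes did. Signals well above background in both channels on all 4 arrays were found for 13 of the 14 probes, as for 91.4% of all probes tested, and signals marked positive and significant for 14 of 14, as for 99% of all probes tested. A count of 3 probes, of MUC1, MUC2 and MUC15, lay below 0 on all 4 arrays, where 9.04% of all probes did. The median of the mean log2 ratio was -0.03 over the mucin probes and -0.00 over all probes. These counts over 14 probes show nothing particular to the mucins.

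The intervals bound the ratio of a probe, and whether its signal came from its own transcript was not tested. Their width rests on the moderated variance of limma, drawn from all probes tested as well as from the 2 clones. The GALNT3 probe, close to background, also had a 95% interval within 1.5-fold (fold 0.917 to 1.08). In all 14 mucin probes tested the 95% interval of the mean lay within 1.5-fold of no change in either direction, as it did in 93.2% of all probes. With that spread assumed for ctrl too, which the test against 0 leaves out, 12 of the 14 intervals lay within 1.5-fold, and the exceptions were MUC15 and MUC20 probe A_23_P92222. Dim probes can lose little before they reach background, and with a background offset of 0 in place of 50 all 14 intervals again lay within 1.5-fold.

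**Figure D3:**
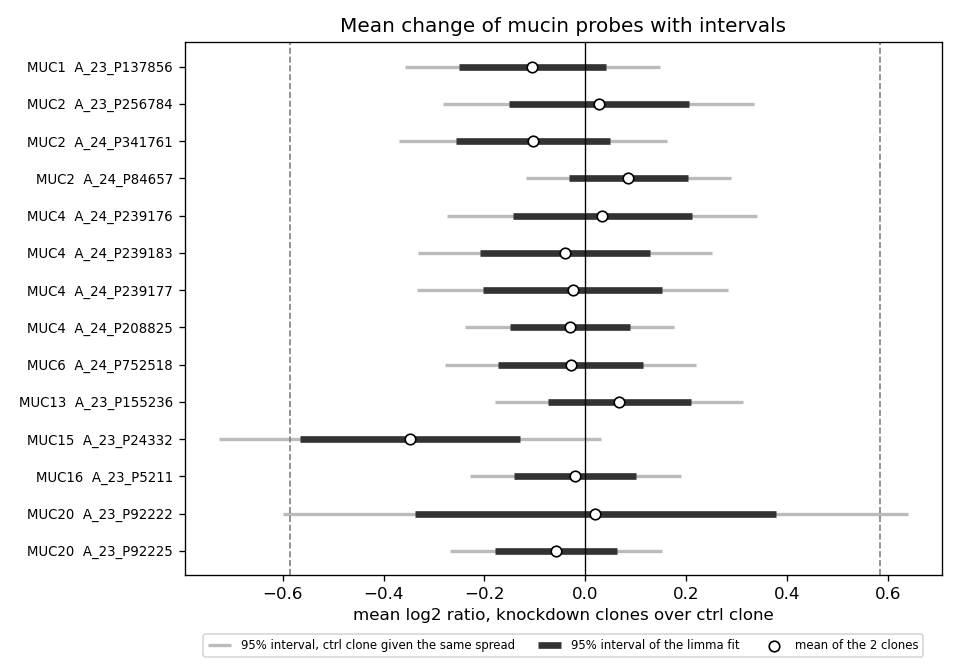
Mean log2 ratio of knockdown over ctrl (horizontal axis) of the 14 mucin probes tested (vertical axis). Circles are the means of the 2 clones, black bars the 95% intervals of the limma fit, and grey bars the intervals with the same spread assumed for ctrl, with dashed lines at 1.5-fold. The black bars all lie between the dashed lines, and that of MUC15 alone leaves out 0.

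Several mucin ratios moved with the dye. In 5 of the 14 probes, 3 of MUC4 and 1 each of MUC2 and MUC13, the sign of the ratio followed the dye on all 4 arrays, as in 40.5% of all probes. Across the 39151 probes the ratios of replicates 1 and 2 had an r of 0.324 in sh-G1 and of 0.186 in sh-G2, and probes are not independent replicates. Between the clones, 0 mucin probes differed by the limma test, where 0.123% of all probes did, 48 with the dye term in the fit and 5 without it. At an unadjusted p under 0.05 only the MUC20 probe A_23_P92222 was counted, where 7.45% of all probes were. The 95% interval of the difference between sh-G1 and sh-G2 lay within 1.5-fold in 12 of the 14 probes, as in 82.9% of all probes.

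Genes that accompany the mucins were taken from lists, several of whose members the study itself chose on these arrays, so they are not independent evidence. Among 27 probes of other mucins and mucin-like proteins, 1 was called lower, where 0.7% of all probes were, and their median log2 ratio was -0.02. That probe was PODXL, podocalyxin, a sialomucin of the podocyte surface, with log2 ratios of -0.84, -0.86, -0.78 and -0.84 and a limma adjusted p of 0.0265. The values of both clones lay close together, and PODXL is one of the genes the study listed. Among the others, MUC7 and MUC17 had means between -0.03 and 0.01.

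Among 26 probes of binding and signalling partners of mucins, 0 passed the limma test. LGALS3, a galectin that binds mucin glycans, had log2 ratios of -0.74 and -0.57 in sh-G1 and of -1.23 and -1.34 in sh-G2, with an adjusted p of 0.189 in limma. All 4 arrays lay below 0, and the difference between the clones did not pass the limma test (adjusted p = 0.325). The receptor EGFR also lay below 0 on all 4 arrays, with -0.83, -0.19, -1.05 and -0.71 (limma adjusted p = 0.146). MSLN, mesothelin, which binds MUC16, had a mean of -0.01. CDH1, the epithelial cadherin, also had a mean of -0.01, and the 2 probes of CTNNB1, its cytoplasmic partner, had means of -0.05 and 0.01. The CTNNB1 values varied, with clone means of 0.07 and 0.22 in sh-G1 and of -0.18 and -0.21 in sh-G2. Replicate 1 of sh-G2 was lowest in both CTNNB1 probes, at -0.47 and -0.78. Among 29 probes of genes for mucin production and packaging, 0 passed, and AGR2, a disulfide isomerase needed to fold MUC2, had a mean of -0.07. The means of this list ran from -0.69 to 0.14, lowest for FOXA1, a transcription factor that the study also listed, whose 2 probes lay below 0 on all 4 arrays (limma adjusted p = 0.0677 and 0.142).

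Among 34 probes of enzymes that start and extend O-glycans, 0 passed the limma test. A change of at least 1.5-fold on all 4 arrays was found for 1, a lower one, and for 1.15% of all probes in either direction. The lower one was a probe of ST3GAL1, a sialyltransferase that caps the core 1 O-glycan. Its log2 ratios were -1.21 and -0.83 in sh-G1 and -1.83 and -1.74 in sh-G2. Its adjusted p in limma was 0.139. The other ST3GAL1 probe gave -0.74, -0.54, -1.08 and -0.74. C1GALT1, which builds the core 1 structure, had a mean of 0.17 with signs that followed the dye. Over the list, 5 of the 34 probes lay below 0 on all 4 arrays, where 9.04% of all probes did. The highest mean was 0.79, for a probe of GALNT4, with clone means of 1.08 for sh-G1 against 0.50 for sh-G2 and all 4 arrays above 0 (limma adjusted p = 0.220). The other GALNT4 probe also lay above 0 on all 4 arrays, with clone means of 0.65 for sh-G1 and only 0.08 for sh-G2 (limma adjusted p = 0.468). GALNT14, another enzyme that starts O-glycans, had a mean of -0.64 (limma adjusted p = 0.0579). GALNT7 had a mean of -0.70 (limma adjusted p = 0.113), with sh-G2 arrays at 0.18 and -1.31. GALNT6 lay below 0 on all 4 arrays, with a mean of -0.33 (limma adjusted p = 0.105).

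Of the 17 epithelial marker probes, 4 were called lower, where 0.7% of all probes were, and the other 13 did not pass. The 4 were probes of the keratins KRT8 and KRT18, not all of whose probes were called. KRT18 probe A_23_P99320 had log2 ratios of -2.57, -2.80, -2.47 and -2.17 (limma adjusted p = 0.0214). Both keratins are among the genes the study listed. The interval of each mucin probe tested lay within 1.5-fold, as in 93.2% of all probes. With the same spread assumed for ctrl, this held for 12 of the 14. Of the 11 mesenchymal or fibroblast marker probes, 1 was called higher, where 54 of all 39151 probes were. It was a probe of COL3A1, collagen III, with a mean of 0.90 (limma adjusted p = 0.0349). Another COL3A1 probe was at least 1.5-fold higher on all 4 arrays, with log2 ratios of 0.60, 0.94, 0.59 and 0.87, and did not pass (limma adjusted p = 0.0573). The matrix proteoglycan LUM had log2 ratios of -4.65 and -4.51 in sh-G1 and of -2.08 and -2.01 in sh-G2. DCN, another of that family, gave -4.12, -4.37, -2.07 and -2.11. The difference between the clones exceeded the spread between dye-swapped arrays in both, with limma adjusted p of 0.0182 and 0.0300, but neither passed the test of the mean, and the spread between clones is not in that comparison. The cadherin CDH2 was at least 1.5-fold lower on all 4 arrays, with a mean of -1.50. Of the 5 leukocyte marker probes tested, 0 passed. What part these marker differences had in the mucin values was not tested.

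**Figure D4:**
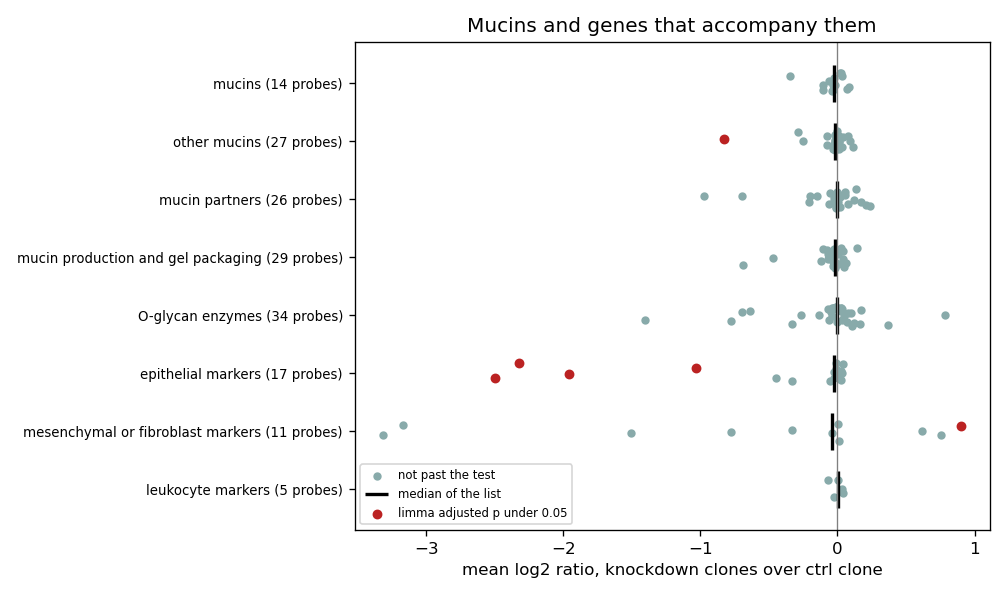
Mean log2 ratio of knockdown over ctrl (horizontal axis) of the probes of each gene list (vertical axis), with black bars at the median of a list. Red points have a limma adjusted p under 0.05, which holds for 4 epithelial, 1 mesenchymal and 1 other mucin probe. The 14 mucin probes lie between -0.35 and 0.09.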

How the data were processed

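Total RNA of 2 GALNT3 knockdown clones and 1 mock-transfected ctrl clone was compared on 4 dual-colour arrays. The authors deposited, from Agilent Feature Extraction (version 10.5.1.1 per the file headers, 8.5.1.1 in the submitters' processing notes), the median spot and background intensity per channel and the log10 ratio of Cy5 over Cy3. The authors also deposited other marks for spots that were outliers or well above background. The series matrix, as deposited, holds log10 ratios for 3 arrays and, for replicate 2 of sh-G1, the error of the ratio, so that column was used in no comparison. The p-values and dye-normalised intensities deposited per spot were not used.

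A RefSeq gene table of GRCh38.p14 gave symbols for 25398 of the 41000 probes. Outlier spots (145 to 215 of 43376 per array) were left out. Intensities were corrected with normexp and an offset of 50, normalised by loess within arrays and averaged over the spots of a probe, with the dye swaps turned so that a ratio is knockdown over ctrl. A value on every array was left for 40905 probes, and the 39151 that were well above background in 1 or both channels on each array were tested. The null hypothesis of a clone mean of 0 was tested by limma 3.58.1 under R 4.3.3 (lmFit, then eBayes with a trend), two-sided, with Benjamini-Hochberg adjustment over those probes and a threshold of 0.05. Clones were compared on the 4 arrays with a dye term. Channel levels were scaled with Aquantile. The random block used statmod 1.5.0. Median rather than mean intensities were taken, since the latter are not given. The fits were tested on simulated data. Figures were made with matplotlib 3.10.9 in Python 3.11.15.

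The labels write the cell line of ctrl in 2 ways, and it was taken as the 1 mock-transfected A2780s clone that the study names. The 10 genes, the gene lists and the tests were chosen with earlier results of these data known. Every mucin probe is given, and of the other lists the probes past the test or at least 1.5-fold on all 4 arrays, with defining genes of a list. FOXA1, EGFR, GALNT4, GALNT6, GALNT7 and GALNT14 were named after their values were seen. The spread among ctrl clones is not in the test, as there is 1. The arrays of a clone may share an RNA extract and counted as 1 replicate in the test of the mean. Its p-values and intervals rest on the spread between 2 clones as moderated by limma with the variance of all probes tested, not on that spread alone. In the comparison of the clones with each other the arrays are the replicates, and its p-values measure the spread between arrays, moderated in the same way. Precision is limited by the number of arrays. Alternatives were no background correction, an offset of 0, centring on the median, the software's log ratio, the series matrix, no or a stricter filter, outlier spots kept, each array left out, clone as a random block, and the ctrl clone given the spread of the knockdown clones.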

Additional observations from a re-analysis of the deposited data

How the results depend on the processing

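Under every alternative run, 0 mucin probes changed at least 1.5-fold on all 4 arrays, also at 2-fold, by the mean of the clones or, a count added after the data were seen, on both arrays of either clone, and 0 differed between the clones where that comparison could be fitted. The limma test of the mean called 0 mucin probes under all alternatives except clone as a random block, which called 1, MUC15, at -0.35 (adjusted p = 0.0273). MUC15 and MUC1 lay below 0 under each of 14 alternatives, MUC15 between -0.56 with the series matrix and -0.27 without sh-G2 replicate 2 and MUC1 between -0.14 and -0.06. A changed filter, the random block and the spread assumed for ctrl leave these means as they are, so no sign could change there. The number of mucin intervals within 1.5-fold, a measure added after the data were seen, was 12 to 15 and was lowest without sh-G2 replicate 2 and with the ctrl clone given the spread of the knockdown clones. Over all probes, 328 were called in the reported fit, 526 with the software's log ratio, 1002 with the series matrix, 2569 with the random block, 0 with the ctrl clone given that spread, and 378 to 1088 with 1 array left out (630 without sh-G1 replicate 1, 1055 without sh-G1 replicate 2 and 1088 without sh-G2 replicate 1).

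The other mucin means were small, and several changed sign. MUC2 A_24_P84657 stayed above 0, between 0.010 without sh-G2 replicate 2 and 0.21 with the series matrix, and was 0.15 with an offset of 0, 0.17 centred on the median and 0.16 without sh-G2 replicate 1. With each array centred on its median, MUC2 A_23_P256784 was -0.016, MUC4 A_24_P208825 was 0.044, MUC20 A_23_P92222 was -0.025 and MUC20 A_23_P92225 was 0.017. With the software's log ratio, MUC4 A_24_P208825 was 0.0090 and MUC16 was 0.030. With the series matrix, which lacks a dye swap for sh-G1, MUC2 A_23_P256784 was -0.053, MUC2 A_24_P341761 was 0.0080, MUC4 A_24_P239183 was 0.12, MUC4 A_24_P239177 was 0.086, MUC4 A_24_P208825 was 0.18, MUC6 A_24_P752518 was 0.13, MUC13 was -0.0042, MUC16 was 0.23, MUC20 A_23_P92222 was -0.094 and MUC20 A_23_P92225 was 0.045. With 1 array left out, which leaves the dyes unbalanced, MUC2 A_23_P256784 ranged from -0.10 to 0.16, MUC4 A_24_P239176 from -0.095 to 0.16, MUC4 A_24_P239183 from -0.11 to 0.026, MUC4 A_24_P239177 from -0.085 to 0.035, MUC4 A_24_P208825 from -0.063 to 0.0020, MUC6 A_24_P752518 from -0.088 to 0.030, MUC13 from -0.083 to 0.22, MUC16 from -0.060 to 0.021, MUC20 A_23_P92222 from -0.15 to 0.19 and MUC20 A_23_P92225 from -0.16 to 0.042. The cause was not tested.

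The replicate number marks the dye orientation. Without the dye term, that is with no replicate block, 0 mucin probes differed between the clones, and over all probes 5 did in place of 48. That comparison could not be fitted with an array left out or on the 3 arrays of the series matrix, since no residual degree of freedom remains. By the software's mark for a positive and significant spot, 14 of the 14 mucin probes tested were detected in both channels on all 4 arrays, as 99% of all probes tested, against 13 well above background. Probes of the other lists were not recomputed under the alternatives. Signal over background limits the probes MUC2 A_24_P84657, MUC4 A_24_P208825 and MUC20 A_23_P92225, whose ctrl signal lay under 1 log2 unit above the lowest signal well above background.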
